A study of Mus musculus with 2 samples.

Results

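Myelin and oligodendrocyte transcripts were followed across mouse cerebellar sections that held breast tumors. The 9 genes were *Mbp*, *Mog*, *Mag*, *Mobp*, *Cnp*, *Mal*, *Olig1*, *Olig2* and *Sox10*, taken as a list of names from the 19465 genes of the count matrices, and all 9 passed the filter on low counts. The data came from 2 sections of formalin-fixed cerebellum, each 5 µm thick and each a separate biological replicate. The mice were untreated, the study used animals 5 months old for injection, and the tumors had grown from injected organoids of mammary tumors with HER2 V777L and PIK3CA H1047R (genotype HP). Sample titles name the organoids HP-F1 +cre for replicate 1 (section 1) and HP-B6 +cre for replicate 2 (section 2), and the cell line label of both begins with B6-HP. Both sections carry a tumor and no section without one was analysed here, so tissue far from the tumor is the only reference. Transcripts were read with Visium CytAssist, in which pairs of probes against mouse transcripts are captured on barcoded spots and counted as unique molecular identifiers (UMIs). A spot can hold several cells.

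Oligodendrocytes wrap axons of the central nervous system in myelin, a stack of membrane that lets nerve impulses travel fast. In the cerebellum, myelin is densest in the white matter of the folia and in the tracts and nuclei beneath the cortex. It is sparser in the cortex, where Purkinje and granule neurons sit. OLIG2, OLIG1 and SOX10 are transcription factors of the lineage, and *Olig2* and *Sox10* are already transcribed in precursor cells. *Mbp*, *Mobp*, *Mog*, *Mag*, *Cnp* and *Mal* encode proteins of the myelin sheath and belong mainly to differentiated cells.

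Promoter sequences of 6 of the 9 genes were found in the RefSeq table (GRCm38.p6, the build of mm10), and for 5 of them an entry began at the outer end of the annotated gene. The 250 bases before that start were searched on both strands for ACAAAG and ACAATG, letters that SOX factors such as SOX10 can bind, and for the E-box CANNTG, letters that factors such as OLIG2 can bind. Of all 32851 promoter windows of this length in the table, 16.5% held ACAAAG, 10.7% held ACAATG and 66.2% held CANNTG. The E-box letters were in none of the 5 windows. ACAAAG or ACAATG was in 3 of the 5, which are printed here in lower case with the matches in capitals. Whether these letters go with the levels of the genes was not tested. The *Mobp* window held ACAAAG 6 times, always as CTTTGT, and it was the only window of the 32851 with 6 or more matches. Such a match describes the letters and does not show binding.
Mobp, plus strand, chr9:120149492-120149741: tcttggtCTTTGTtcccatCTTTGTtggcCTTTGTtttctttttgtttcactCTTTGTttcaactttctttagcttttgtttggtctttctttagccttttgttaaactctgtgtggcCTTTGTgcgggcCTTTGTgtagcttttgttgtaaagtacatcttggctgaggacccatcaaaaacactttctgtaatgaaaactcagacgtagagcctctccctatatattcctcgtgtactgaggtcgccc
Mag, minus strand, chr7:30914923-30915172: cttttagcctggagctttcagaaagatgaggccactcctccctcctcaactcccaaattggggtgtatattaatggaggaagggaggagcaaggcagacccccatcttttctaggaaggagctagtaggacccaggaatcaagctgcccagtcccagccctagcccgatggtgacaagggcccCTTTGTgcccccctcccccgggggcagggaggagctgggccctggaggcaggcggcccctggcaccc
Olig2, plus strand, chr16:91225300-91225549: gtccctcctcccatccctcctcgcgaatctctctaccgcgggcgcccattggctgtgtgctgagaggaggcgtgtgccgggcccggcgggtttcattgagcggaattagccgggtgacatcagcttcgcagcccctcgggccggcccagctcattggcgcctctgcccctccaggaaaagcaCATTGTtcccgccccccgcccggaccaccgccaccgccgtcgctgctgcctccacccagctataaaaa
The *Mag* window held ACAAAG 1 time, as CTTTGT, and the *Olig2* window held ACAATG 1 time, as CATTGT. The windows of *Mal* and *Mog* held neither.

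Section 1 had 63986887 UMIs over 3406 spots under tissue and section 2 had 71878333 UMIs over 4017 spots. Spots were divided by the balance of a tumor panel of 19 epithelial and matrix genes and a neural panel of 20 neuron and astrocyte genes, with no oligodendrocyte gene in either. The tumor held 907 spots in section 1 and 1154 in section 2. The edge, defined as tissue 1 or 2 spot steps outside the tumor, held 142 and 183 spots, and neural tissue from 3 steps outward held 2257 and 2562 spots. Spots differed in depth. Median UMIs per spot were 50395 and 36760.5 for the tumors of the 2 sections, 14945.5 and 13858 for the edges, and 7356 and 9558 for neural tissue. The sections share 3096 array barcodes, as positions on the same array design, and no pair of these had identical counts. Levels are therefore given as counts per 1000000 UMIs (CPM), with TMM scaling where regions are compared, and UMIs per spot are added where the scale matters. The tumors differed in make-up: fibroblast markers summed to 52835 CPM in the tumor of section 1 and 711 in section 2, and epithelial markers to 43.3 and 8915 CPM. The neural tissue carried markers of cerebellar neurons in both sections, with a Purkinje cell list at 1209 and 2618 CPM and a granule neuron list at 985 and 1978 CPM. A list of projection neurons outside the cerebellar cortex was at 3637 and 2639 CPM. Each of these lists shares genes with the neural panel, so part of its level there was set by the rule.

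**Figure D1:**
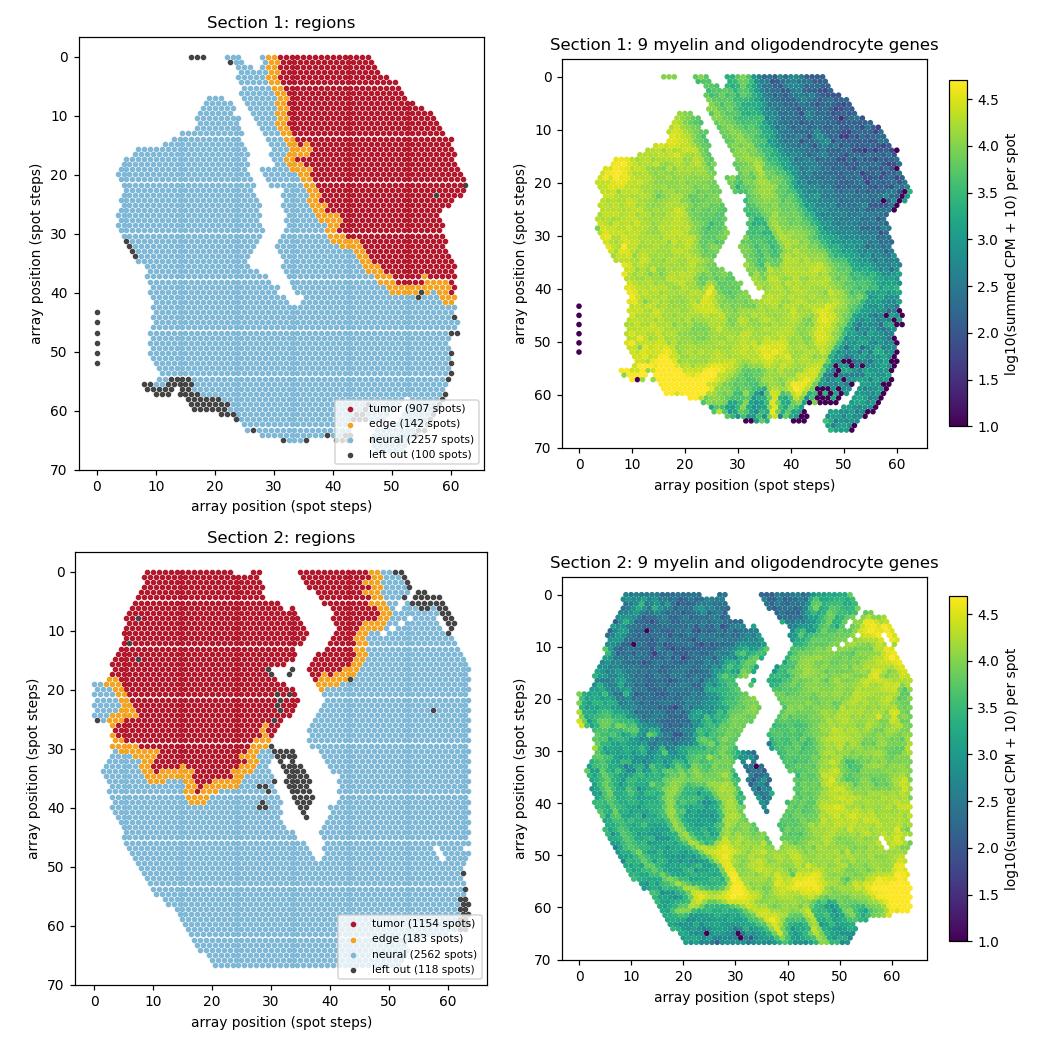
Maps of the 2 sections, with each dot a spot placed by its array position in spot steps. Left panels give the region of each spot, with 907 and 1154 tumor spots, and right panels give the summed level of the 9 genes as log10(CPM + 10), which is low across both tumors and uneven across the neural tissue, with branching bands of high level in section 2.

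The first comparison asked how far transcripts of the 9 genes extend into the tumor. All 9 genes were lower in tumor than in neural tissue in both sections, and all 9 were called at a Benjamini-Hochberg adjusted p below 0.05 in edgeR's quasi-likelihood fit, which took each section as a block. In this comparison 14.9% of the 19219 genes tested were called lower, 15.2% higher and 30.1% in either direction, so a call by itself is common. The median log2 fold change of the 9 genes was −3.00, against −0.08 over all genes tested. A decrease of this size was not particular to them. Projection neuron markers were at 32.2 and 80.9 CPM in tumor against 3637 and 2639 CPM in neural tissue, Purkinje cell markers at 102 and 98.1 CPM against 1209 and 2618 CPM, and granule neuron markers at 87.0 and 108 CPM against 985 and 1978 CPM. These lists share genes with the neural panel that helped to draw the tumor, so part of their decrease was built in. Outside that panel, *Nefh* was at 6.27 and 13.2 CPM in tumor against 585 and 415 CPM in neural tissue. *Itpr1* was at 64.7 and 49.4 CPM against 409 and 657 CPM. An astrocyte list, which also shares genes with the panel, summed to 1456 and 3753 CPM in tumor against 3548 and 6307 CPM in neural tissue. Its genes did not move together, so the sum does not stand for each of them. *Slc1a2*, a gene of the panel, was at 58.7 and 69.0 CPM in tumor against 1172 and 863 CPM. *Gfap* was at 1011 and 977 CPM against 1321 and 4427 CPM. *Gja1* was at 269 and 2596 CPM against 484 and 446 CPM, and in section 2 it alone of the list was higher in tumor. In spots that hold mixed cells, fewer oligodendrocytes and less of a transcript per oligodendrocyte cannot be told apart.

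*Mobp*, whose product sits at the cytoplasmic faces of compact myelin, had the largest change of the 9. Its level was 2330 CPM in neural tissue and 117 CPM in tumor of section 1, and 2073 and 178 CPM in section 2, a log2 fold change of −3.90 ± 0.37 (SE, edgeR adjusted p = 0.0033). *Mbp*, the basic protein that holds the cytoplasmic faces of the sheath together, was at 6426 CPM in neural tissue and 401 CPM in tumor of section 1, and at 4306 and 552 CPM in section 2 (log2 fold change −3.44 ± 0.44, adjusted p = 0.0066). For both genes the tumor values lay far below the neural values, and the decrease was larger in section 1.

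*Mog*, an immunoglobulin-like protein of the outermost layer of the sheath, fell from 216 to 10.5 CPM in section 1 and from 184 to 25.5 CPM in section 2 (log2 fold change −3.53 ± 0.48, adjusted p = 0.0081). *Mag*, a sialic acid-binding protein of the innermost layer that faces the axon, fell from 435 to 44.8 CPM and from 389 to 85.0 CPM (−2.69 ± 0.40, adjusted p = 0.0097). *Cnp*, a cytoplasmic enzyme of the non-compacted channels of myelin, was at 786 and 771 CPM in neural tissue and at 148 and 209 CPM in tumor (−2.14 ± 0.26, adjusted p = 0.0059). Its decrease was the smallest among the 6 sheath genes. *Mal*, a proteolipid of lipid-rich membrane domains, was at 451 and 381 CPM in neural tissue and at 28.5 and 83.9 CPM in tumor (−3.00 ± 0.54, adjusted p = 0.0173).

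The transcription factors fell as well. *Olig1* was at 208 and 176 CPM in neural tissue and at 13.3 and 37.5 CPM in tumor (log2 fold change −3.00 ± 0.54, adjusted p = 0.0176). *Olig2* was at 20.5 and 17.0 CPM in neural tissue and at 2.29 and 4.69 CPM in tumor (−2.46 ± 0.43, adjusted p = 0.0147). *Sox10* was at 32.0 and 33.8 CPM in neural tissue and at 5.75 and 11.6 CPM in tumor, with the smallest change of the 9 (−1.97 ± 0.36, adjusted p = 0.0165). Each of these genes was called lower in tumor, as were 14.9% of all genes tested. Each was also lower in tumor of section 1 than in tumor of section 2.

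Because tumor spots carried more UMIs in all, the decrease was smaller in UMIs per spot. On that scale the 9 genes together reached 0.320 of the neural value in section 1 and 0.365 in section 2. *Mobp* reached 0.228 and 0.220, and *Mbp* 0.282 and 0.329. *Sox10* reached 0.811 and 0.880, and *Cnp* 0.852 and 0.693. Every gene was below its neural value in both sections on this scale too. The nearest to it were *Cnp* and *Sox10* in section 1, and *Sox10* and *Olig2* (0.705) in section 2. Set against the UMIs of the neural panel, which helped to draw the tumor and so had to be low there, the direction turned: the 9 genes together were at 1.20 and 1.99 times the neural value. On this scale all 9 were above it in section 2, and all but *Mobp* (0.854 times) and *Mog* (0.827 times) in section 1, with *Sox10* at 3.04 and 4.79 times and *Cnp* at 3.20 and 3.77 times.

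**Figure D2:**
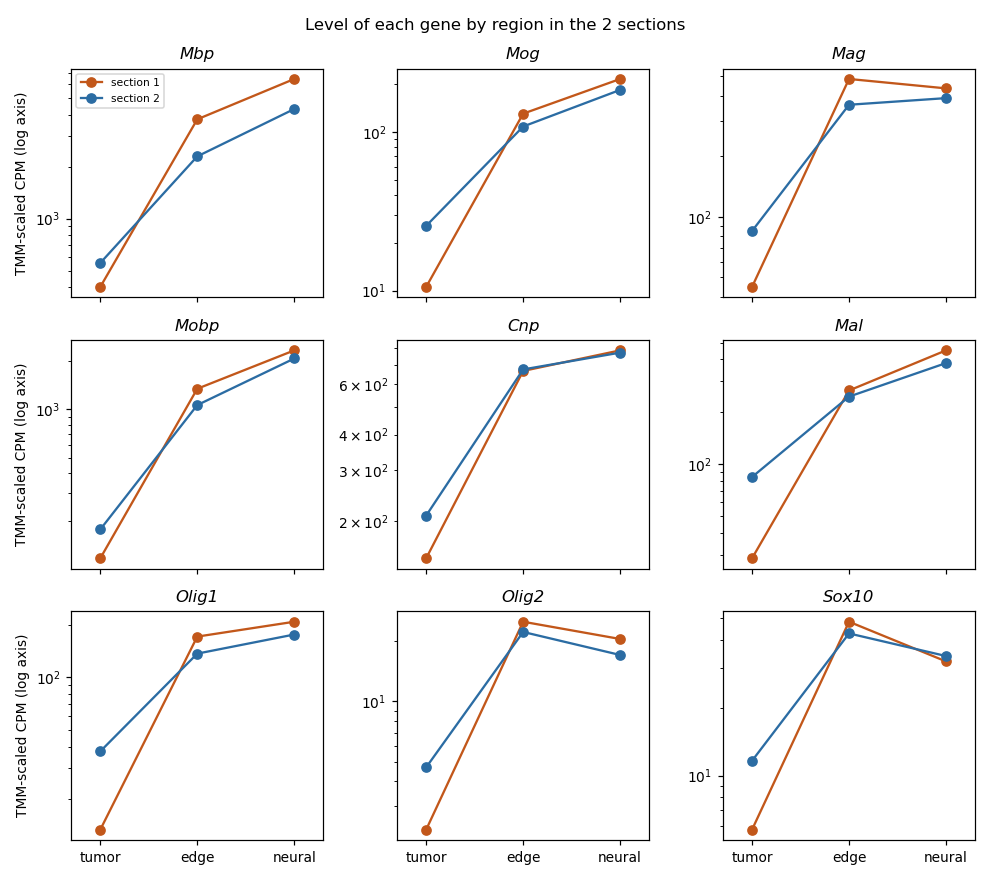
Level of each of the 9 genes in tumor, edge and neural tissue as TMM-scaled CPM on log axes, with 1 point per region and section and a line joining the points of a section. For every gene the tumor point of a section lies below its neural point. At the edge *Olig2* and *Sox10* lie above the neural point of the same section, and *Mbp*, *Mobp*, *Mog* and *Mal* below it.

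The second comparison asked whether tissue touching the tumor differed from tissue farther away. No member was called between edge and neural tissue by edgeR (0 of 9), in a comparison where 0% of all genes were called. At an unadjusted p below 0.05 there were 3476 genes, of which *Mobp* was the only one of the 9, and DESeq2 called 1461 genes but none of the 9. The values follow as measurements.

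On the CPM scale *Mobp* and *Mbp* had lower values at the edge than in neural tissue of both sections. *Mobp* was at 1342 CPM at the edge of section 1 and 1062 CPM in section 2, with a log2 fold change against neural tissue of −0.87 (95% interval −1.73 to −0.02, adjusted p = 0.27). *Mbp* was at 3753 and 2289 CPM (−0.84, interval −1.88 to 0.21, adjusted p = 0.37). *Mog* at 130 and 108 CPM (−0.74) and *Mal* at 265 and 244 CPM (−0.72) lay in the same direction, also below the neural values of both sections.

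*Cnp* at 666 and 674 CPM (−0.22, interval −0.86 to 0.43) and *Olig1* at 171 and 137 CPM (−0.32, interval −1.62 to 0.98) were only slightly below. *Mag* was at 485 CPM at the edge of section 1, above its neural value of 435, and at 361 CPM in section 2, below its neural value of 389. Its log2 fold change was 0.04, with an interval of −0.93 to 1.01, so a decrease as large as that of *Mobp* lies within it.

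*Olig2* and *Sox10* stood above neural tissue at the edge of both sections. *Olig2* was at 25.0 and 22.2 CPM (log2 fold change 0.33, interval −0.74 to 1.39, adjusted p = 0.77). *Sox10* was at 48.0 and 42.6 CPM (0.47, interval −0.43 to 1.37, adjusted p = 0.57). Neither interval excludes no change. Of the 9 genes, 6 were lower in both sections, 2 were higher in both, and *Mag* differed in sign between them. Of all 19219 genes tested, 7368 were lower in both and 6434 higher in both.

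Edge tissue differed from neural tissue in its other cells. A macrophage list was at 2949 and 1378 CPM at the edge against 174 and 179 CPM in neural tissue, and a microglia list at 1771 and 1334 against 510 and 635 CPM. Markers of projection neurons outside the cerebellar cortex were at 570 and 883 CPM at the edge against 3637 and 2639 CPM in neural tissue. No gene of these lists was at 0 in any region, and a Schwann cell list lay between 17.5 and 34.6 CPM in every region. Section 1 held 1 tumor mass and section 2 held 2. Which tissue the tumors happened to border and any effect on that tissue cannot be told apart in these sections. When neural tissue was limited to 3 to 14 steps, an alternative chosen after the lists by distance had been seen, *Mbp* was at −0.31 and *Mobp* at −0.43 on the log2 scale at the edge (adjusted p = 0.85 and 0.71), while *Olig2* was at 0.45 and *Sox10* at 0.39.

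In UMIs per spot the edge was again different from CPM. *Mbp* at the edge was 1.14 times its neural value in section 1 and 0.710 times in section 2, so its direction depended on the section. The same held for *Mobp* (1.12 and 0.684 times), *Mog* (1.18 and 0.785 times) and *Mal* (1.14 and 0.856 times). *Sox10* was 2.92 and 1.68 times, *Olig2* 2.38 and 1.74 times and *Mag* 2.17 and 1.24 times the neural value, above it in both sections. *Cnp* (1.65 and 1.17 times) and *Olig1* (1.60 and 1.04 times) were above it as well, opposite to their CPM. Set against the UMIs of the neural panel, which itself was lower at the edge, all 9 genes were higher there in both sections, by 1.05 to 1.48 times for *Mobp* and 2.59 to 3.86 times for *Sox10*. A *Sox10* UMI was seen in 50.7% of edge spots against 22.6% of neural spots in section 1, and in 47.0% against 29.5% in section 2. An edge spot held more UMIs in all than a neural spot, and that difference in depth moves with these shares.

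The third comparison set the whole tumor, most of whose spots (712 of 907 and 891 of 1154) lay 4 or more steps deep, against the edge. Of the 9 genes, 8 were called lower in tumor. Among all genes, 6.96% were called lower, 3.02% higher and 9.98% in either direction. The log2 fold changes were −3.03 for *Mobp* (edgeR adjusted p = 0.0136), −2.79 for both *Olig2* and *Mog* (0.0268 and 0.0328), −2.73 for *Mag* (0.0224), −2.68 for *Olig1* (0.0495), −2.61 for *Mbp* (0.0292), −2.44 for *Sox10* (0.0240) and −1.92 for *Cnp* (0.0181). *Mal* was at −2.28 and missed the threshold (adjusted p = 0.0638), and *Olig1* lay just inside it. DESeq2 called *Mal* too (−2.27, adjusted p = 0.000508).

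Levels were then followed by distance, in steps of the hexagonal array, within each section. These values are plain CPM over the spots at each distance and describe the sections without a test. Outside the tumor *Mbp* and *Mobp* held most of the UMIs of the 9 genes, so the sum mainly follows them there. In section 1 the 9 genes together stood at 7141 CPM 1 step outside the tumor, at 9507 at 4 steps, at 7011 at 5 to 6 steps and at 14063 from 15 steps outward. In section 2 they stood at 5495 CPM at 1 step, at 4813 at 3 steps and at 10088 from 15 steps outward. So the level near the tumor was uneven in section 1 and nearly flat in section 2 up to 9 steps (5506 CPM at 7 to 9 steps). In both sections the highest CPM was in the farthest tissue. Projection neuron markers were also highest in the farthest tissue, from 373 CPM at 1 step to 4413 from 15 steps in section 1, and from 749 to 3204 in section 2. In UMIs per spot the order depended on the section. The 9 genes together were at 122 at 1 step, 127 at 2 steps and 102 from 15 steps in section 1. In section 2 they were at 72.5 at 1 step and 104 from 15 steps. Per 100 UMIs of the neural panel they were at 180 and 96.9 at 1 step, against 105 and 68.4 from 15 steps.

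Inside the tumor the decline was gradual over the first spots. The 9 genes together were at 5493, 3301 and 2036 CPM at depths of 1, 2 and 3 steps in section 1, and at 4568, 2899 and 1960 CPM in section 2. At depths of 4 or more they were at 347 and 641 CPM, and at 15 or more at 146 and 300 CPM. The step across the border itself was small: the level 1 step outside was 1.30 times that 1 step inside in section 1 and 1.20 times in section 2. The neural panel, part of the rule that drew the border, was 1.72 and 1.82 times as high outside.

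Single genes differed in where their CPM peaked. *Mbp*, *Mobp* and *Mal* were about 2 times as high in CPM in the farthest tissue as 1 step from the tumor: 2.18 and 2.12 times for *Mbp*, 2.08 and 2.18 times for *Mobp*, and 1.99 and 1.73 times for *Mal*. In UMIs per spot these 3 genes were higher in the farthest tissue of section 2 only. *Mbp* was at 66.6 at 1 step and 61.9 from 15 steps in section 1, and at 33.5 and 55.5 in section 2. The next values are again ratios of CPM. *Mag* was nearly equal at both ends (0.965 and 0.971 times). *Olig2* (0.880 and 0.814 times) and *Sox10* (0.686 and 0.651 times) were lower in the farthest tissue. *Sox10* in section 1 was at 49.9 CPM at 1 step, at 85.5 at 3 steps and at 23.2 at 7 to 9 steps. In section 2 it was highest at 1 step, with 52.8 CPM, and lay between 32.8 and 43.9 CPM at every other distance outside. These highest values rest on few molecules, 76 UMIs in section 1 and 69 in section 2. In section 2 the 95% counting interval at 1 step (41.1 to 66.8 CPM) overlapped both that at 4 steps (32.4 to 58.3 CPM) and that at 1 step inside the tumor (39.8 to 62.1 CPM).

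**Figure D3:**
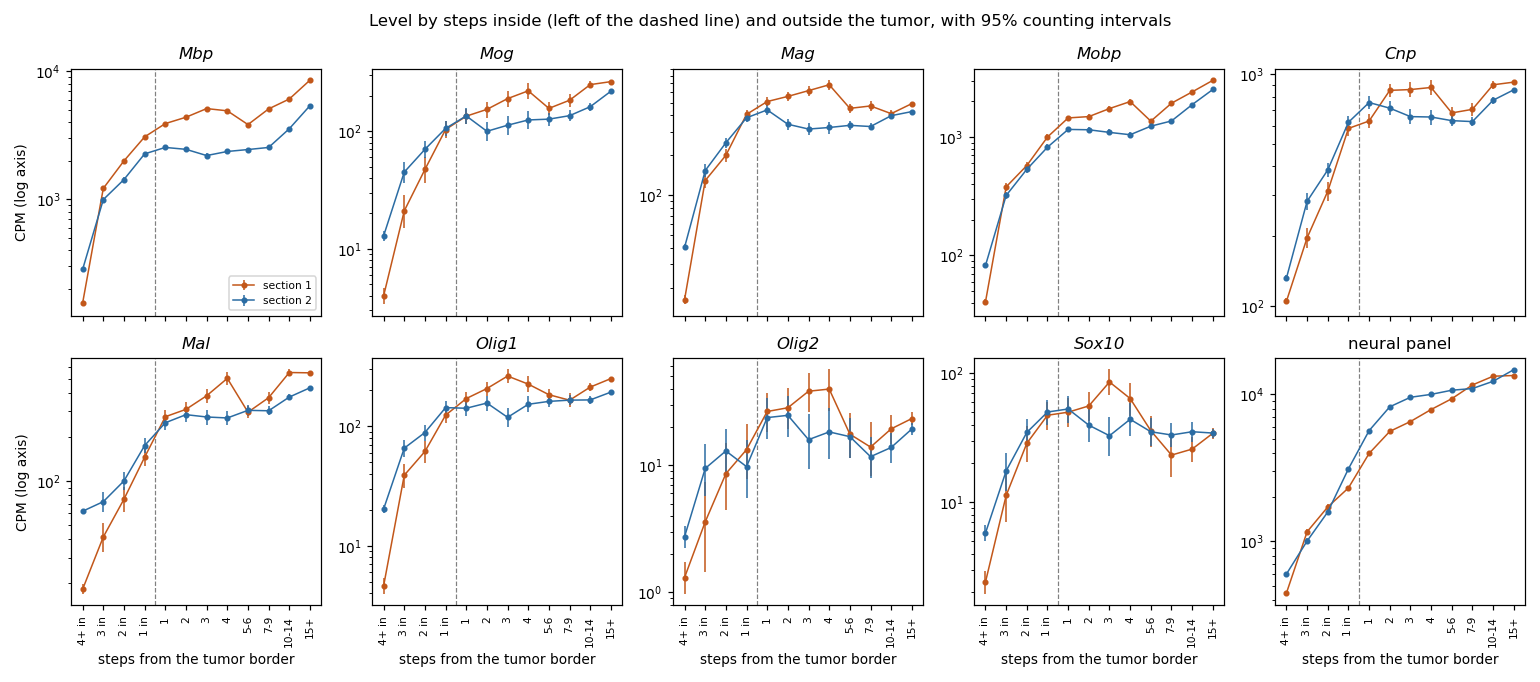
Level in CPM (log axes) of each of the 9 genes and of the neural panel by steps from the tumor border, inside it to the left of the dashed line and outside to the right, with 95% counting intervals as bars. In both sections *Mbp* and *Mobp* are highest at 15 or more steps, while *Sox10* is highest within 3 steps of the border.

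The make-up of the summed signal of the 9 genes changed along the same path. Here each gene is given as its share of the UMIs of the 9 genes, a measure that does not depend on the total depth of a spot. *Sox10* made up 0.294% of these UMIs in neural tissue of section 1 and 0.697% at the edge, and 0.406% and 0.862% in section 2. *Olig2* made up 0.188% and 0.363% in section 1, and 0.205% and 0.450% in section 2. *Mag* made up 3.99% and 7.04%, and 4.67% and 7.30%. *Mobp* went the other way, from 21.4% to 19.5% and from 24.9% to 21.5%. So did *Mbp*, from 58.9% to 54.5% and from 51.7% to 46.3%. Shares of a sum are tied, so a lower share of these abundant genes by itself raises shares of others. *Cnp* was higher in share at the edge too, from 7.20% to 9.67% and from 9.26% to 13.6%, and *Olig1* from 1.91% to 2.48% and from 2.11% to 2.76%. These 5 shares were higher at the edge in both sections, but with 1 value per section and region they have no test.

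Deep in the tumor the genes parted. At depths of 15 steps or more *Mobp* was at 6.01 CPM in section 1 and 18.3 CPM in section 2, and *Mag* at 3.60 and 12.1 CPM. *Mbp* was at 29.3 and 113 CPM. *Cnp* was at 91.9 and 95.1 CPM, almost the same in both tumors. Over depths of 10 or more, which include these same spots, it was at 101 and 98.7 CPM. One step outside the tumor *Cnp* was 6.84 and 7.94 times as high as at 15 steps or more, and *Mobp* was 242 and 63.4 times as high. The share of *Cnp* among the UMIs of the 9 genes was 62.8% there in section 1 (95% exact binomial interval 60.3 to 65.3%, of 1461 UMIs) and 31.7% in section 2 (30.2 to 33.2%, of 3895 UMIs), against 6.57% and 8.49% in the farthest neural tissue. A *Cnp* UMI was present in 97.1% and 94.1% of tumor spots, and a *Mog* UMI in 27.3% and 33.1%. Which cells of the tumor held the *Cnp* transcripts was not tested.

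*Mal* differed between the tumors. At 15 or more steps it was at 6.21 CPM in section 1 and 51.4 CPM in section 2, with shares of 4.24% (3.27 to 5.41%) and 17.2% (16.0 to 18.4%). The value of section 1 rests on 62 UMIs. Over depths of 10 or more, which include these same spots, *Mal* was at 15.9 and 58.3 CPM. Its shares there were 8.08% (7.26 to 8.95%) and 14.7% (13.9 to 15.4%), against 3.89% and 4.29% in the farthest neural tissue. *Mal* is also transcribed in epithelial cells and T cells. Epithelial markers were high in the tumor of section 2, as given above, and T cell markers were at 212 CPM in the tumor of section 1 and 9.86 CPM in that of section 2. Their part in the *Mal* signal was not tested. A *Mal* UMI was found in 80.1% of tumor spots of section 2 and 56.0% of those of section 1.

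**Figure D4:**
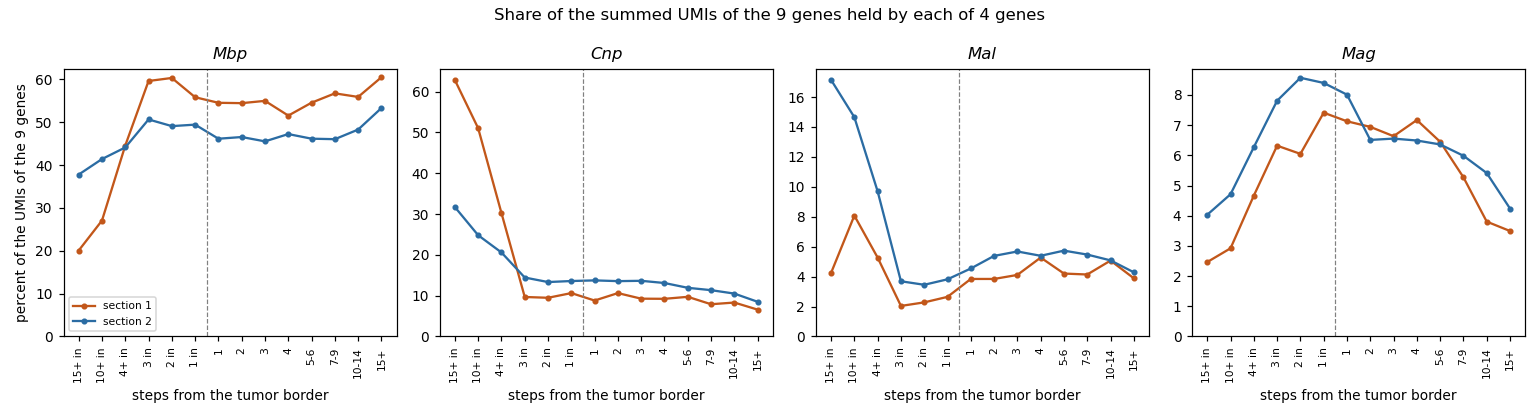
Share of the summed UMIs of the 9 genes held by *Mbp*, *Cnp*, *Mal* and *Mag*, in percent, by steps from the tumor border (bins of 4, 10 and 15 or more steps inside overlap). *Cnp* takes 62.8% and 31.7% of the UMIs in the deepest tumor. *Mal* takes 4.24% and 17.2% there, and 8.08% and 14.7% at depths of 10 or more. The share of *Mag* is highest near the border in both sections.

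Across spots outside the tumor, *Mbp* and *Mobp* varied together, with a Pearson correlation of log-scaled UMIs of 0.92 over 2399 edge and neural spots of section 1 and 0.91 over 2745 of section 2. Each was compared with the sum of the other 8 genes as well: *Mobp* had 0.91 in both sections, *Mag* 0.66 and 0.72, *Cnp* 0.60 and 0.58, *Olig1* 0.41 and 0.48, *Sox10* 0.20 and 0.24, and *Olig2* 0.12 and 0.15. Spots share their section and its layers, and the low values of *Olig2* and *Sox10* stand beside few UMIs per spot (0.20 and 0.33 on average in section 1), so the order is a description and says nothing of weak links. The sum of the 9 genes ran against the Purkinje cell list (−0.65 and −0.68) and less so against the granule neuron list (−0.23 and −0.28). It ran with the projection neuron list (0.52 and 0.49).

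In neural tissue *Mbp* and *Mobp* held 58.9% and 21.4% of the UMIs of the 9 genes in section 1, and 51.7% and 24.9% in section 2. Likeness to the sum is thus mainly likeness to these 2 genes. Among the 10842 genes with enough UMIs to rank, those most like the sum of the 9 included *Fth1*, a ferritin chain that stores iron (0.81 in section 1 and 0.73 in section 2), and *Bcas1*, a marker of myelinating cells (0.69 and 0.63). They also included *Plekhb1*, *Car2*, *Hapln2*, *Aplp1*, *Slc6a11*, *Pex5l* and *Cryab*, whose lower correlation of the 2 sections lay between 0.49 and 0.55. The least alike genes were *Itpr1*, *Arhgef33* and *Car8*, the first and last of them genes of Purkinje cells, at −0.72, −0.71 and −0.68 in section 2.

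A wider list of 48 other genes of the lineage, in 6 roles, was set beside the 9. Against neural tissue the tumor had 35 of 48 called lower, 2 called higher and 11 not called, with a median log2 fold change of −2.23. Among all genes tested, 14.9% were called lower and 15.2% higher. Lower calls were made for 13 of 15 myelin and membrane proteins, 8 of 11 lipid and metabolic enzymes, 5 of 5 junction and paranode genes, 6 of 8 transcription regulators, 3 of 6 precursor genes and 0 of 3 reactive genes. *Plekhb1* was at 964 and 816 CPM in neural tissue and at 62.6 and 113 CPM in tumor (log2 fold change −3.39, adjusted p = 0.0041). *Nfasc*, which anchors the paranode, was at −2.30 and *Cntn2* at −2.95. *Myrf*, the transcription factor that turns on myelin genes, was at −2.71 and *St18* at −2.50, and all of these were called. The 2 genes called higher in tumor were *Cers2*, a ceramide synthase (0.78, adjusted p = 0.041), and *Tcf7l2*, a factor of Wnt signaling (1.31, adjusted p = 0.037), both transcribed in many cell types and named here after their values were seen.

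Precursor genes did not move as 1 group in the tumor. *Lhfpl3* was called lower (−3.00, from 96.5 and 108 CPM to 8.10 and 19.5 CPM). *Pdgfra*, which fibroblasts transcribe too, was at 179 CPM in the tumor of section 1 and 14.5 CPM in that of section 2, against 28.8 and 27.0 CPM in neural tissue, and was not called (1.15, adjusted p = 0.40). The tumor rich in fibroblast markers was the one with high *Pdgfra*, and the part of those cells was not tested.

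At the edge, 0 of the 48 genes were called by edgeR, 13 had an unadjusted p below 0.05, and DESeq2 called 5 higher and 2 lower. Of all 19219 genes tested, edgeR called 0, and 3476 had an unadjusted p below 0.05. The count of all genes called by DESeq2 is given with the second comparison. The median log2 fold change of the 48 was −0.11, with 19 genes above neural tissue in both sections and 23 below it in both. Among all 19219 genes tested, 6434 were above in both and 7368 below in both. By role, 10 of 15 myelin and membrane proteins were below in both sections and 4 above in both. Of the 5 junction genes, 4 were below in both and 1 above, and 5 of 6 precursor genes were above in both. The myelin and membrane proteins above in both included *Cldn11* (log2 fold change 0.88) and *Klk6* (1.23, edgeR adjusted p = 0.17, DESeq2 adjusted p = 0.042), named here after their values were seen.

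*Apod*, a lipid-binding lipoprotein, was at 7276 and 4654 CPM at the edge against 2238 and 2031 CPM in neural tissue, a log2 fold change of 1.47 (edgeR adjusted p = 0.15, DESeq2 adjusted p = 0.0046). *Trf*, the iron carrier transferrin, was at 2838 and 3750 CPM against 970 and 1747 CPM (1.34, 0.15 and 0.0062). *Serpina3n*, a protease inhibitor of reactive glia, was at 1474 and 1266 CPM against 321 and 643 CPM (1.61, 0.14 and 0.0068). *C4b*, a complement component, was at 731 and 789 CPM against 230 and 463 CPM (1.19, edgeR adjusted p = 0.17, DESeq2 adjusted p = 0.052). All 4 genes were higher at the edge in both sections, as were 6434 of the 19219 genes tested. Astrocytes and other cells transcribe these genes as well, and an astrocyte list was at 4925 and 5986 CPM at the edge against 3548 and 6307 CPM in neural tissue. *Gfap* was most of the edge sum, at 3802 and 4839 CPM against 1321 and 4427 CPM. *Gfap* and *Aldh1l1* were higher at the edge in both sections, *Slc1a2*, *Ntsr2* and *Gja1* lower in both, and *Aqp4* differed between them.

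Chosen after its values were seen, *Gpr17*, a receptor of committed precursors that are about to differentiate, was at 44.9 and 40.8 CPM at the edge against 14.1 and 19.1 CPM in neural tissue (log2 fold change 1.39, edgeR adjusted p = 0.12, DESeq2 adjusted p = 0.0034). *Plekhb1* was at 375 and 406 CPM against 964 and 816 CPM, the other way (−1.20, 0.17 and 0.043). Further genes named for their mean CPM moved less at the edge. *Lhfpl3* was at −0.11, *Pdgfra* at 0.38, *Nfasc* at 0.19, *Cntn2* at −0.49, *Myrf* at −0.17 and *St18* at −0.17. Their edgeR adjusted p lay between 0.52 and 0.91.

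**Figure D5:**
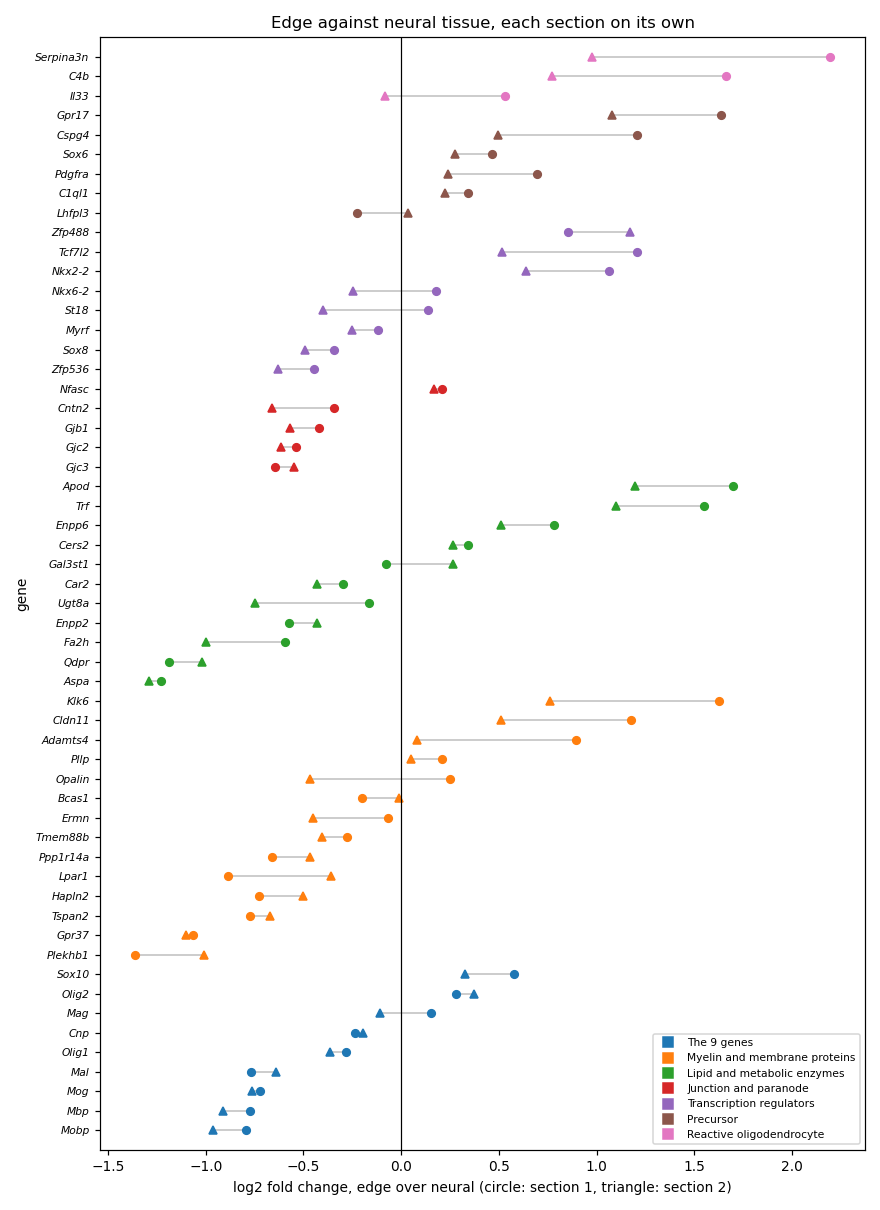
Log2 fold change of edge over neural tissue for the 9 genes and other genes of the lineage, ordered by role, with circles for section 1 and triangles for section 2 joined by a line. *Mobp* and *Mbp* lie to the left of 0 in both sections, *Olig2* and *Sox10* to the right, and *Gpr17*, *Apod*, *Trf*, *Klk6*, *Serpina3n* and *C4b* farther to the right.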

How the data were processed

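Visium CytAssist data of 2 sections, 1 mouse each, were used. The deposited files hold raw UMI counts for each gene in each spot, which the authors made with Space Ranger 2.1.1 on mm10, as the submitters' processing notes name them. The authors' later clusters (9, by Seurat and BayesSpace) were not used here. Spots with under 500 UMIs or 10 genes were left out, and the threshold between tumor and neural panels (log2 ratio of CPM + 10) was set per section by Otsu's method, at 1.24 and −0.28, with tumor masses of at least 50 spots. Since spots are not replicates, the UMIs of each region in each section were added up, giving 6 libraries with between 2341026 and 42919052 UMIs. edgeR 4.0.16 in R 4.3.3 fitted them (TMM, filterByExpr, glmQLFit robust, section as a block, 2 residual degrees of freedom). Regions of a section come from 1 mouse, which pairs them, and edgeR's common dispersion was 0.128 without the section term and 0.0906 with it. The script was tested on simulated data. Counting intervals are exact, at 95%, and cover counting error only; the 2 sections set the precision. Correlations used log1p of UMIs per 10000. Genes named were the 9 members, the 2 with the highest mean CPM in each role, the 10 most like the sum and the 3 least like it, apart from those said to be chosen later and 1 gene that is not reported here. The members and lists were chosen with earlier results of these data known. Alternatives were DESeq2 1.42.0, other scalings, filters, panels, thresholds and distances, no block, and leaving out each section. Python 3.11.15, numpy 2.4.6, scipy 1.17.1, pandas 2.3.3 and matplotlib 3.10.9 were used.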

Additional observations from a re-analysis of the deposited data

How the results depend on the processing

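The 9 of 9 lower calls between tumor and neural tissue, and the absence of calls among the 9 between edge and neural tissue, held in each of the 14 alternatives with a test. Between tumor and edge 7 to 9 of the 9 were called. *Mal* passed there with DESeq2, with library size as the only scaling (adjusted p = 0.0437) and without the replicate block (−2.18, adjusted p = 0.0428). *Olig1* missed with an edge of 1 step (0.0537), neural tissue from 7 steps (0.0525), a neural panel of neurons only (0.0501) and tumor from a depth of 3 steps (0.0545). With DESeq2 the genes called numbered 1461 between edge and neural tissue and 3531 between tumor and edge, against 0 and 1918 with edgeR. Without the replicate block 5198 genes were called between tumor and neural tissue, and no other call among the 9 moved. With the threshold raised by 1, the edge values of *Mag* (−0.14) and *Olig2* (−0.20) turned below 0, and the cause was not tested. Of 432 values of the 9 genes recomputed on the CPM scale, 429 kept their sign, the third exception being *Mag* at the edge without section 1 (−0.11). Leaving out a section allows no test. In UMIs per spot 25 of 27 means over the sections kept their sign, without *Cnp* (0.47) and *Olig1* (0.37) at the edge. Such a mean hides sections that differ: at the edge of section 1 alone, *Mbp*, *Mobp*, *Mog* and *Mal* also lay above neural tissue per spot. Per UMI of the neural panel 3 of 9 edge values kept their sign, since the other 6 lay above 0 (0.32 to 0.99). Depth limits *Olig2* and *Sox10* most, with 61 to 123 UMIs at an edge.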
